A study of Macaca mulatta with 2 samples.

Results

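The aldo-keto reductases are enzymes that use NADPH to reduce carbonyl groups on sugars, aldehydes, steroids and prostaglandins. Members were 10 genes of the family, chosen by name after their values on these arrays were known, and every non-control spot bearing one of those names was used. Of the 10 genes, 9 had a spot, 15 spots in all, and 7 genes with 11 spots were bright enough to be measured. The whole array carried 18841 gene symbols, and 19619 genes, counting unnamed probes singly, were measured. AKR1C2 had no spot of that name, and AKR1C4 and AKR1D1 had spots that were not well above background in any channel.

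The pubertal Sertoli cells came from male rhesus macaques aged 18 to 22 months. Their puberty was induced over 4 to 5 weeks with gonadotropin-releasing hormone, given at a rate of 0.15 µg/min in pulses that lasted 2 min and came at intervals of 3 h. The infant Sertoli cells came from males below 3 months of age. Both kinds of primary culture were held for 24 h with follicle-stimulating hormone (5 ng/ml) and testosterone (100 nM). No culture without these hormones is analysed here. Each of 2 arrays held 1 pubertal and 1 infant culture, with pubertal RNA in Cy5 on array 1 and in Cy3 on array 2.

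Probes were human 60-base sequences, and mismatches to macaque transcripts were not analysed here, so levels are compared only within a probe. Between 60.9% and 74.8% of the 43376 spots were well above background per channel. Of 18 listed Sertoli cell markers 16 were measured, which already required them to be well above background for 1 age on both arrays. Of these 16, 15 were well above background in all 4 channels, and FSHR, the receptor gene for follicle-stimulating hormone, was not.

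In human cells the AKR1C enzymes act on steroid hormones. AKR1C1 inactivates progesterone, AKR1C2 reduces dihydrotestosterone, and AKR1C3 makes testosterone from androstenedione and also acts as a prostaglandin F synthase. AKR1B1, aldose reductase, turns glucose into sorbitol, and its relative AKR1B10 reduces retinal and other aldehydes. Several of these genes are known in human cells as targets of the antioxidant factor NRF2. The AKR1C genes of both species lie close together, and in the macaque RefSeq gene table AKR1E2, AKR1C1, AKR1C2, a gene without a symbol, AKR1C4 and AKR1C8 are consecutive protein-coding genes. Of the 10 members 9 were matched by symbol in at least 1 of the macaque RefSeq and Ensembl gene tables, and AKR1C3 in neither.

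The probes of this family resemble each other, and the sequences below, from the scanner files, show how far. One AKR1C1 probe and the AKR1C3 probe target the same stretch of related transcripts, as do probes of AKR1A1 and AKR1D1. The human build is hg17 and each sequence reads 5′ to 3′. Capitals mark bases identical to the AKR1C3 probe in the first line, and to that AKR1C1 probe in the other lines.
AKR1C1 (chr10:5008064-5008123, plus strand): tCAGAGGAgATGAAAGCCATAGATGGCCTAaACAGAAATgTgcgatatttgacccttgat
AKR1C3 (chr10:5137789-5137848, plus strand): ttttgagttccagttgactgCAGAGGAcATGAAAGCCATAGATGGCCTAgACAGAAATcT
AKR1A1 (chr1:45703910-45703969, plus strand): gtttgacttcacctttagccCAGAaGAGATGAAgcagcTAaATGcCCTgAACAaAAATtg
AKR1D1 (chr7:137255699-137255758, plus strand): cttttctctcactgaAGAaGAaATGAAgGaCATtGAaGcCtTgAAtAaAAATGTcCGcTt
The AKR1C1 and AKR1C3 probes were identical at 37 of 41 overlapping bases (90.2%). The differences were T1G, G9C, A31G and G40C, with positions counted from the 5′ end of the AKR1C1 probe and its base given first. With so few differences, the transcripts of AKR1C1 and AKR1C3 cannot be told apart with certainty by this pair of probes. The AKR1A1 probe matched that AKR1C1 probe at 28 of 41 bases (68.3%) and the AKR1D1 probe at 31 of 47 (66.0%). The AKR1D1 probe was not well above background in any channel, and the AKR1A1 ratios had the opposite sign to those of AKR1C1. Whether any of these probes binds transcripts of another gene was not tested.

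The other AKR1C1 and AKR1B probes on which the results turn did not reach 60% identity with a probe of another member, over at least 30 bases. Only probes were compared with each other, and probes from different parts of related transcripts would not match. AKR1C2 had no probe of that name to compare. Binding of these probes to transcripts of relatives was therefore not tested. The first and second AKR1C1 probes shown here matched a probe of another gene of the family, tAKR, at 29 of 46 bases (63.0%) and 37 of 58 (63.8%), and neither tAKR probe was well above background in any channel.
AKR1C1 (chr10:5009910-5009969, plus strand): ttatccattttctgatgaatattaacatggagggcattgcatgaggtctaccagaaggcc
AKR1C1 (chr10:4995636-4995695, plus strand): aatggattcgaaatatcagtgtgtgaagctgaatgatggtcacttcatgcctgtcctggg
AKR1B10 (chr7:133683054-133683113, plus strand): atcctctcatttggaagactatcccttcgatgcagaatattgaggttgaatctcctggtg
AKR1B10 (chr7:133683194-133683253, plus strand): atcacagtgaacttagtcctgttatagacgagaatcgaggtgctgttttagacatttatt
AKR1B1 (chr7:133587316-133589352, minus strand): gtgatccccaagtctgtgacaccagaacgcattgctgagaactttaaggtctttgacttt
The AKR1B1 probe spans 2037 bases of the genome, 1977 more than its own length, so it crosses an intron. Of the 4 AKR1C1 probes, 2 list more than 1 RefSeq transcript in the array annotation, and the files do not name the genes of the further transcripts.

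In the pubertal cells 4 aldo-keto reductases were lower than in the infant cells on both arrays by at least 2-fold, namely AKR1C1, AKR1C3, AKR1B1 and AKR1B10. AKR1A1, AKR7A2 and AKR7A3 differed by less than 2-fold on each array. Of the 7 measured genes, 5 were lower on both arrays, against 21.9% of all genes, and 1 was higher on both, against 23.5%. At least 2-fold lower on both were 4 of 7, against 0.352% of all genes, and at least 2-fold higher were 0 of 7, against 0.342%. Because the members were chosen with these ratios known, nothing is read from the difference from the background. By probe, 5 of the 11 measured spots were at least 2-fold lower on both arrays, against 0.299% of 25777 probes. Lower on both arrays by any amount were 8 of the 11, and that share over all probes was not counted. AKR1C1, AKR1B10 and AKR1A1 each enter these spot counts more than once. The median log2 ratio of pubertal over infant over the 7 genes was -1.19 on array 1 and -1.28 on array 2, beside 0.05 and -0.03 over all genes. In bulk RNA fewer cells of a type and less RNA per cell cannot be told apart.

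limma's test over the 2 dye-swapped ratios called 0 of 19619 genes (0%) at an adjusted p under 0.05, where the lowest adjusted p was 0.2. Without adjustment, 790 of the 19619 genes had a p under 0.05 in that test. Among the members its lowest adjusted p was 0.971. The pair of arrays limits what can be called, and the values of the members are given as a description.

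**Figure D1:**
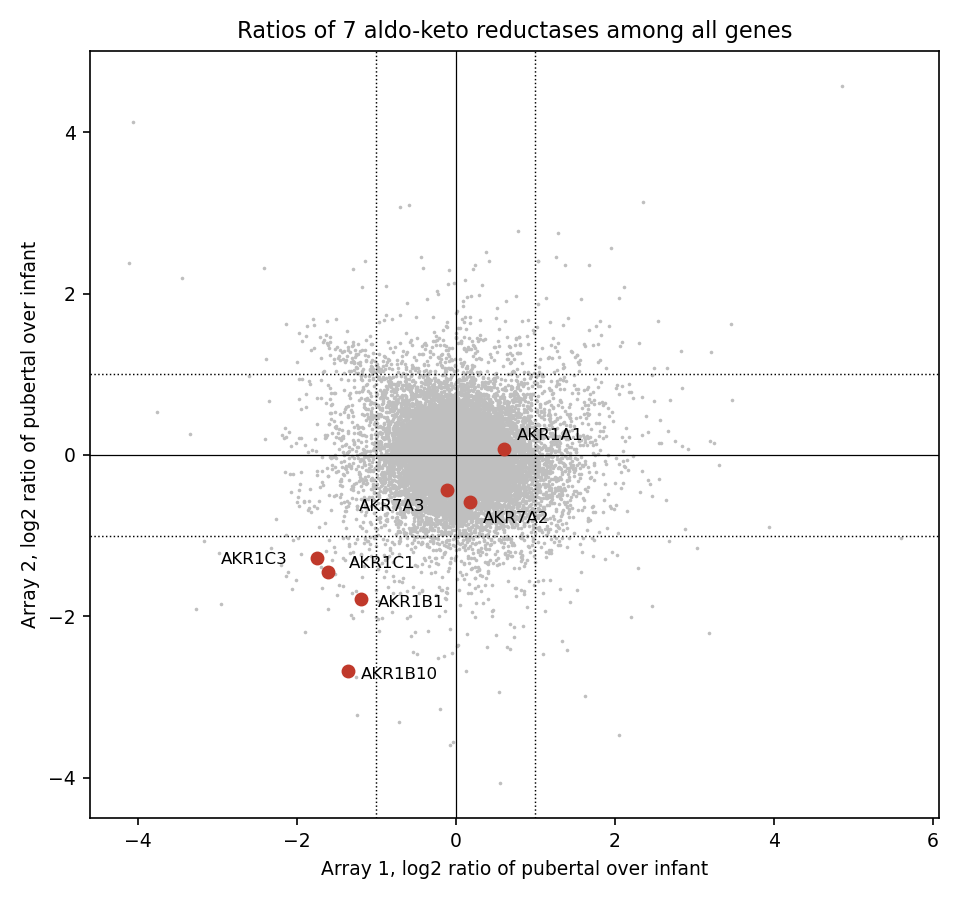
Log2 ratio of pubertal over infant on array 1 (x axis) and array 2 (y axis) for every measured gene (grey) and the 7 aldo-keto reductases (red), with dotted lines at 2-fold. AKR1C1, AKR1C3, AKR1B1 and AKR1B10 lie beyond both lower lines, and AKR1A1, AKR7A2 and AKR7A3 lie inside the lines.

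AKR1C1 is represented by its brightest probe, the one at chr10:5009910-5009969. Its normalised log2 intensity was 11.36 and 12.05 in pubertal cells on arrays 1 and 2, against 12.98 and 13.50 in infant cells. Both pubertal values lay below both infant values. Its log2 ratios of -1.61 (array 1) and -1.46 (array 2) averaged -1.54 ± 0.24, or 2.90-fold lower, where the error here and for other genes is limma's moderated SE over n = 2 array pairs.

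The further AKR1C1 probes gave the same direction where they were measured. The probe that resembles AKR1C3 had levels of 8.92 and 9.62 in pubertal cells, against 10.19 and 11.03 in infant cells, and ratios of -1.27 and -1.41. The third probe had 7.48 and 8.30 in pubertal cells, against 9.03 and 9.10 in infant cells, and ratios of -1.55 and -0.80. The fourth (chr10:4985037-4985096) was too dim to be kept, at -0.36 and 0.13. So 3 AKR1C1 probes at separate positions were lower on both arrays, and 2 of them by at least 2-fold on each. Both counts include the probe that resembles AKR1C3, which may not tell the transcripts of AKR1C1 and AKR1C3 apart.

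AKR1C3 was at 10.24 and 11.28 in pubertal cells, against 11.99 and 12.56 in infant cells, again with no overlap. Its ratios were -1.75 and -1.28, a mean of -1.51 ± 0.26 or 2.86-fold lower. The AKR1C4 probe, for an enzyme of the human liver, was at the level of the background, at 5.94 and 6.09 in pubertal cells and 6.16 and 5.89 in infant cells, so no difference can be read there. AKR1D1, the steroid reductase of bile acid synthesis, was also not above background with either of its 2 probes. Of 5 hepatocyte genes, ALB, TTR and CYP7A1 were likewise not measured, while APOA1 (0.86 and 0.30) and SERPINA1 (0.08 and 0.29) were well above background in all 4 channels.

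**Figure D2:**
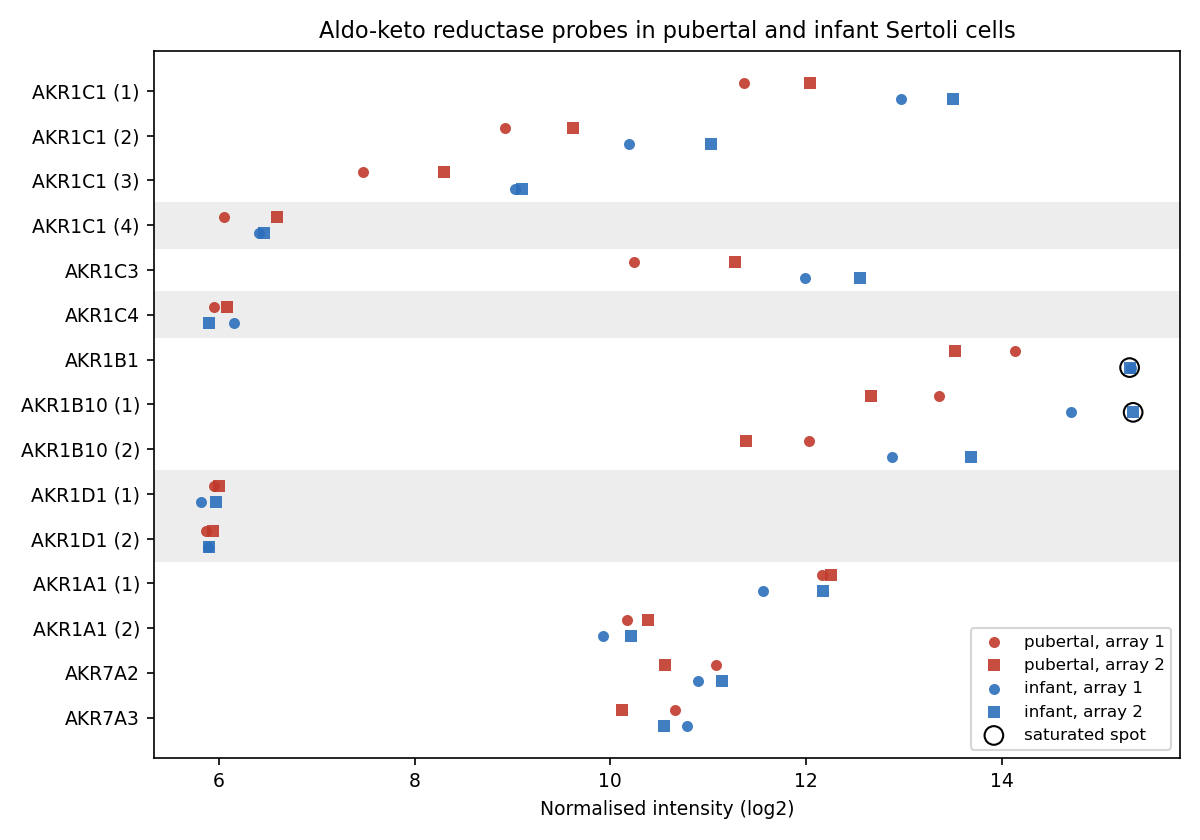
Normalised log2 intensity (x axis) of each aldo-keto reductase spot (rows) in pubertal (red, upper) and infant (blue, lower) Sertoli cells on array 1 (circles) and array 2 (squares). Numbers in brackets count probes of a gene, grey rows were not measured, and rings mark saturated spots. The red symbols lie left of the blue ones in AKR1C1 (1) to (3), AKR1C3, AKR1B1 and both AKR1B10 rows.

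AKR1B10 was measured by 2 probes. The brighter one was at 13.36 and 12.67 in pubertal cells, against 14.71 and 15.35 in infant cells. Its ratios were -1.35 and -2.68, a mean of -2.02 ± 0.38 or 4.05-fold lower. The infant spot on array 2 was saturated, so its signal there is a lower limit.

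The second AKR1B10 probe was not saturated. It gave 12.03 and 11.39 in pubertal cells, against 12.88 and 13.68 in infant cells, with ratios of -0.85 and -2.30 and a mean of -1.57. The 2 probes had the same direction on both arrays, and array 2 had the larger difference with either.

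AKR1B1, which opens the polyol pathway, was at 14.14 and 13.52 in pubertal cells, against 15.32 and 15.31 in infant cells. Its ratios were -1.19 and -1.79, a mean of -1.49 ± 0.27 or 2.80-fold lower, and the infant spot on array 2 was saturated here too. With saturated spots left out AKR1B1 had no value and AKR1B10 rested on its second probe, so the count at least 2-fold lower on both arrays was 2 (AKR1C1 and AKR1C3) in place of 4. The means of AKR1C1 and AKR1C3, neither with a saturated spot, differed by less than their standard errors.

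AKR1A1, an aldehyde reductase of broad use, was at 12.17 and 12.25 in pubertal cells, against 11.56 and 12.17 in infant cells. Its ratios were 0.61 and 0.08, a mean of 0.34 ± 0.27, and its second probe gave 0.24 and 0.18. The groups overlapped, since the pubertal value on array 1 lay just below the infant value on array 2. A probe listed under another name (W74523) is complementary to 49 of 49 overlapping bases of the first AKR1A1 probe, so it reads the opposite strand. It was dim, at 6.58 and 6.45 in pubertal cells and 6.47 and 6.60 in infant cells. In infant cells on array 1 it was not well above background. Its ratios were 0.11 and -0.15, and what it binds was not tested.

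The AKR7A enzymes reduce aldehydes, succinic semialdehyde in the case of AKR7A2 and those made from aflatoxin in the case of AKR7A3. AKR7A2 was at 11.08 and 10.56 in pubertal cells, against 10.90 and 11.15 in infant cells, so its ratios of 0.18 and -0.58 went opposite ways. AKR7A3 was at 10.67 and 10.12 in pubertal cells, against 10.78 and 10.55 in infant cells. Its ratios were -0.11 and -0.43, a mean of -0.27 ± 0.25, and its groups overlapped. The means of AKR7A2 (-0.20 ± 0.29) and AKR7A3 were smaller than their standard errors or close to them.

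The 4 genes at least 2-fold lower in pubertal cells were also those whose pubertal levels all lay below the infant levels, 4 of 7 against 14.1% of all genes. None of the 7 had pubertal levels all above infant levels, against 15.7% of all genes. These levels hold the same ratios that picked the 4 genes, and the members were chosen with the ratios known. Nothing is therefore read from either share. In the direction Cy5 over Cy3, 0 members were at least 2-fold apart on both arrays, where 49 of all 19619 genes were higher and 107 lower. Genes lower in pubertal cells on both arrays cannot be counted in that direction, so nothing is read from the 0. The 4 genes were picked as lower on both arrays, so they are lower with pubertal RNA in Cy5 and in Cy3 by that rule. Nothing is read from this either, and the 2 arrays held different cultures.

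Among genes lower on both arrays, ordered by the smaller of their 2 ratios in size, AKR1C1 stood at place 12, AKR1B10 at 17, AKR1C3 at 23, AKR1B1 at 37 and AKR7A3 at 2455. The 5 genes whose ratios on the 2 arrays lay nearest to those of AKR1C1 were RARRES1 at a Euclidean distance of 0.159 (-1.56 and -1.31), PTGDS at 0.207 (-1.68 and -1.65), TMTC1 at 0.208 (-1.47 and -1.61), AKR1C3 at 0.223 and NEIL1 at 0.266 (-1.52 and -1.21). AKR1B1 was at a distance of 0.538 and AKR1B10 at 1.25, each with a saturated infant spot on array 2. Nearness over 2 arrays is a description only.

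Of the 15 spots, 6 were listed in the authors' deposited table, all of AKR1C1, AKR1C3 or AKR1B10. The AKR1B1 spot was not listed there. In the authors' deposited table the first AKR1C1 probe had log2 ratios of -1.75 and -1.44, the second -1.55 and -1.40, and the third -1.97 and -1.04. AKR1C3 had -1.80 and -1.41 in the authors' deposited table. In the authors' deposited table AKR1B10 had -1.23 on array 1 with an empty cell on array 2 for the brighter probe, and -0.99 and -2.33 for the other.

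Other genes around the aldo-keto reductases were counted in lists. Over all genes, 21.9% were lower and 23.5% higher on both arrays, with medians of 0.05 and -0.03. At least 2-fold lower on both arrays were 0.352% of all genes. In the list of NRF2 antioxidant genes, 14 of 23 measured genes were lower on both arrays, 0 were higher and 9 went opposite ways, with medians of -0.18 and -0.64. With median centring in place of loess, 3 of the 23 were lower and 1 higher. TXNRD1, thioredoxin reductase, was at -1.53 and -1.14, the only gene of that list at least 2-fold lower on both arrays. NQO1, a quinone reductase, was at -0.93 and -2.02. GCLM, a gene of glutathione synthesis, was at -0.68 and -1.58, and the ferritin gene FTL at -0.54 and -2.44. HMOX1, heme oxygenase, went opposite ways at 2.06 and -3.47.

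The short-chain and other carbonyl reductases did not lie to one side, with 8 of 24 lower and 5 higher on both arrays and medians of 0.16 and -0.36. CBR4 was at -0.43 and -1.09, HSD17B1 at -0.17 and -1.51 (its further probes had means of -0.58 to 0.22), and HSD17B12 at 0.27 and 1.02, while RDH11 was higher on both arrays with a mean of 0.67. Of the polyol and aldehyde genes 6 of 19 were lower and 2 higher on both arrays, with medians of -0.21 and -0.06. SORD, sorbitol dehydrogenase, which follows AKR1B1 in the polyol pathway, was at -0.08 and 0.32. ALDH1A2, which makes retinoic acid, was at 0.09 and 1.84, ALDH2 at -0.65 and -0.47, HAGH at -0.82 and -0.41 and ALDH9A1 at -0.42 and -0.19.

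Of the prostaglandin genes 3 of 7 were lower on both arrays and 0 higher, with medians of -0.49 and -0.36. PTGDS, a prostaglandin D synthase, was the only one at least 2-fold lower on both. PTGS2 was at -0.49 and -2.47, PTGIS at -0.09 and -0.46, and PTGS1 went opposite ways at -2.35 and 0.66. Of 3 other measured genes of the aldo-keto reductase fold 1 was lower and 1 higher on both arrays. KCNAB2, a potassium channel subunit, was at -0.11 and -0.09 with a further probe at a mean of 0.05, KCNAB1 at -0.28 and 0.20, and AKR1CL2 at 0.36 and 0.03.

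**Figure D3:**
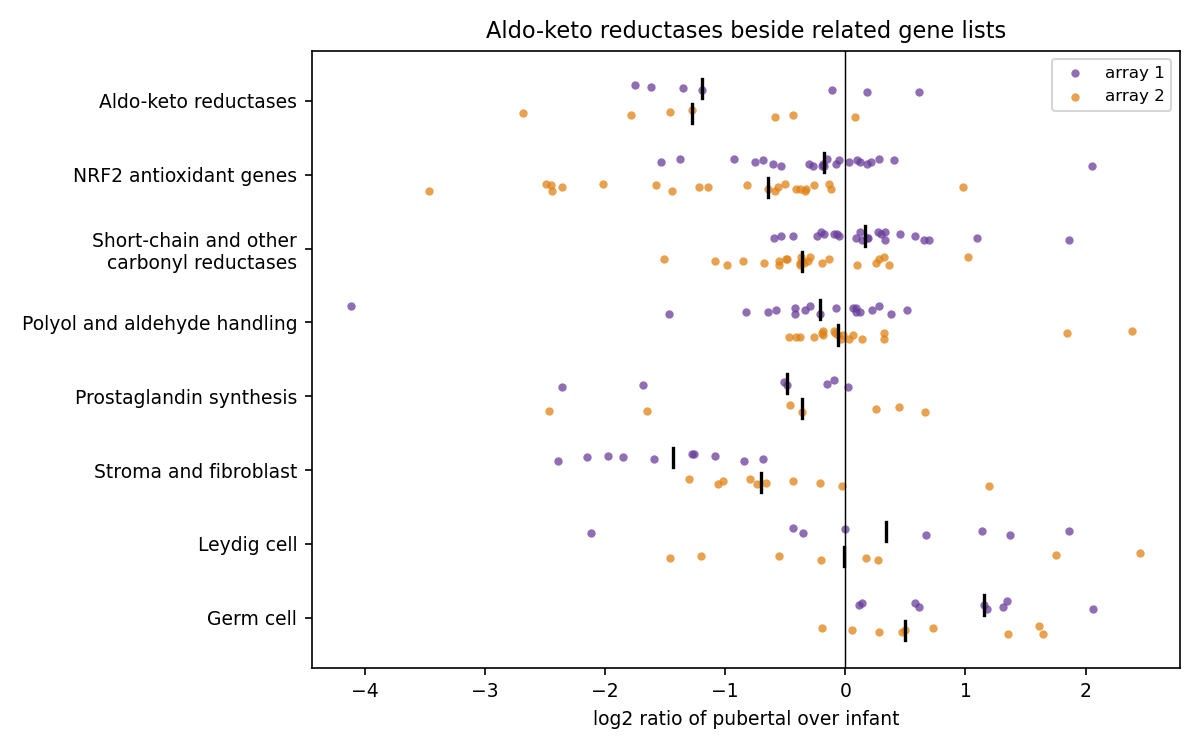
Log2 ratio of pubertal over infant (x axis) of each measured gene in the aldo-keto reductases and 7 other lists (rows), for array 1 (purple, upper) and array 2 (orange, lower), with black bars at the medians. The aldo-keto reductase medians are -1.19 and -1.28, and those of the stroma and fibroblast markers are -1.44 and -0.70.

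Some markers of other cell types differed between the ages as well. The shares over all genes, 21.9% lower and 23.5% higher on both arrays, stand beside each marker count below. Of the stroma and fibroblast markers 9 of 10 were lower in pubertal cells on both arrays and 0 higher, with summed normalised intensities of 29226 and 42156 in pubertal cells, against 73466 and 63354 in infant cells. PDGFRB was at -1.08 and -1.01, NR2F2 at -1.60 and -1.06 and FBLN1 at -1.28 and -1.30, where 2 further FBLN1 probes had means of -0.49 and -0.10. Of the germ cell markers 8 of 9 were higher on both arrays and 0 lower, with sums of 2727 and 2284 in pubertal cells, against 1259 and 1243 in infant cells. DAZL was at 1.18 and 1.65, STK31 at 2.06 and 1.35 and PRAME at 1.34 and 1.61.

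Leydig cell markers were mixed, with 1 of 8 lower and 1 higher. CYP17A1 was at -2.12 and -1.45 and CYP11A1, with 1 saturated spot, at 0.67 and 0.27, while LHCGR was not measured. Of the Sertoli cell markers 2 of 16 were lower and 6 higher, with sums of 168804 and 210181 in pubertal cells, against 195599 and 138892 in infant cells. Such sums are weighted to the brightest probes. Among these were KRT18, at -1.46 and 1.30 with 2 saturated spots, and INHBB, INHA and TF with 1 saturated spot each. CST9L was at 4.85 and 4.58, and CLDN11, a tight junction gene, at 1.45 and 1.28. DES, the desmin gene, a peritubular myoid marker, was at -1.07 and -1.26, while ACTA2 of the same list was at 0.65 and 0.51. Lower and higher on both arrays were 2 and 1 of 5 peritubular myoid, 1 and 1 of 5 macrophage and 1 and 1 of 3 endothelial markers, and 0 and 2 of 2 measured hepatocyte genes. The part that other cell types in the cultures have in the aldo-keto reductase ratios was not tested.

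The 4 lower genes kept the sign of their mean under each processing in which they had a value, but with median centring 0 of the 7 were at least 2-fold lower on both arrays, and AKR1B1 was at 0.11 on array 1. It left medians over all genes of 0.63 on array 1 and -0.42 on array 2. Relative to those medians AKR1C1 was at -1.14 and -1.78, AKR1C3 at -1.39 and -1.54, AKR1B1 at -0.52 and -2.22 and AKR1B10 at -0.73 and -3.08.

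**Figure D4:**
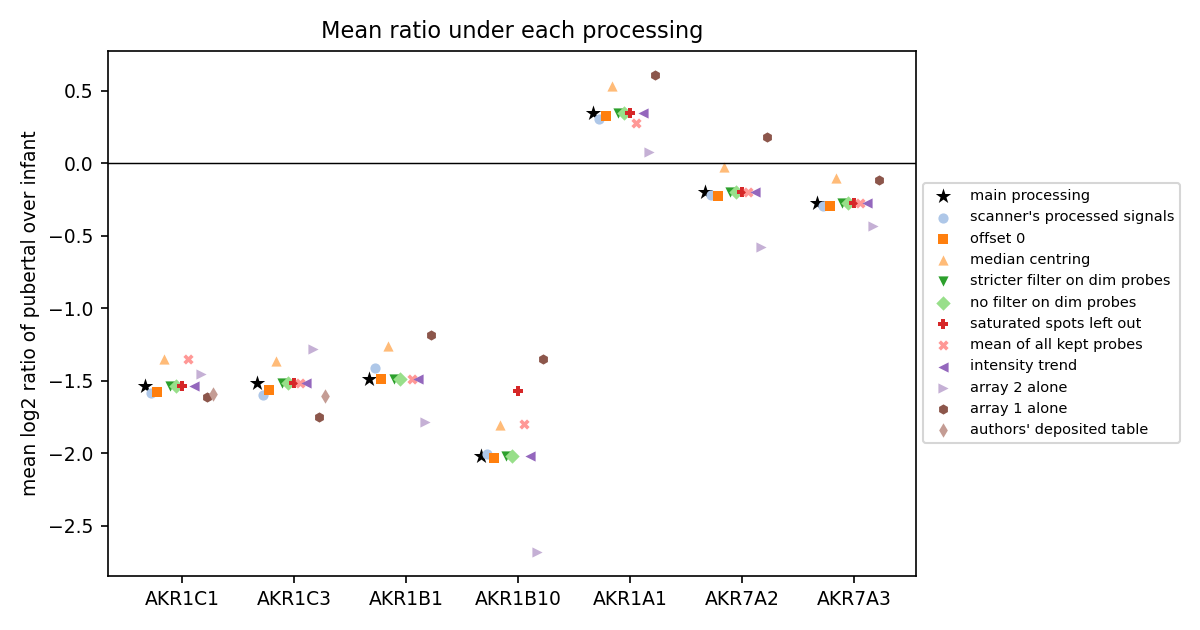
Mean log2 ratio of pubertal over infant (y axis) of each of the 7 genes (x axis) under the main processing (black star) and each alternative (other symbols), including each array alone. AKR1C1, AKR1C3, AKR1B1 and AKR1B10 lie below 0 wherever they have a value, and AKR7A2 lies on both sides of 0.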

How the data were processed

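The 2-colour Agilent arrays of a human design (014850) were read, per the submitters' processing notes, with the software Agilent Feature Extraction 9.5.1.1. Per the file headers, the scanner files deposited by the authors hold, per channel, a raw mean intensity of each spot, a median intensity of its surroundings and a processed intensity. They also hold log10 ratios of Cy5 over Cy3 and spot flags, per the file headers. The authors' deposited table holds log2 ratios, and how they were normalized is not given in the sources used here.

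The background of the mean intensities was corrected by normexp (offset 50) and each array normalized by loess, without weight for control spots, in limma 3.58.1 under R 4.3.3. Outlier spots were left out, and spots of 1 probe were averaged. Probes were kept where well above background for the pubertal RNA on both arrays or the infant RNA on both, 25777 of 41000. The brightest kept probe stood for a gene. Levels are log2 intensities after loess and quantile scaling of the mean channel intensity. Ratios were turned to pubertal over infant and tested with lmFit and eBayes (Benjamini-Hochberg, 1 residual and 3.79 prior degrees of freedom). Both arrays were on 1 slide.

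Members and gene lists were chosen with earlier results of these data known. Of the other gene lists, genes at least 2-fold apart on both arrays and those among the 4 lowest limma p of their list were named. Of the marker lists the genes at least 2-fold apart were named, with CYP11A1, ACTA2, APOA1 and SERPINA1. Further markers among the 4 lowest p of their list were not named. The labels call the cultures biological replicates. HMOX1, SORD, CYP11A1, ACTA2, KRT18, INHBB, INHA, TF, FSHR and the unmeasured markers were named after their values were seen.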

Additional observations from a re-analysis of the deposited data

How the results depend on the processing

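Of the 4 lower genes, each array alone and every other processing in which they had a value gave a mean below 0. Apart from each array alone, AKR1C1 ranged from -1.59 to -1.35 on the log2 scale, AKR1C3 from -1.60 to -1.36, AKR1B1 from -1.49 to -1.26 and AKR1B10 from -2.03 to -1.57. AKR7A2 was at -0.58 on array 2 and 0.18 on array 1. The genes at least 2-fold lower on both arrays (69) became 218 with the scanner's signals, 130 without an offset, 23 with median centring and 465 to 582 on 1 array alone. Those at least 2-fold higher (67) became 278, 164 and 461 to 835 with the scanner's signals, without an offset and on 1 array alone. limma's 0 calls became 1 without an offset, with median centring or with an intensity trend. With median centring the members lower on both arrays were 3 in place of 5, those higher 0 in place of 1, and those at least 2-fold lower 0 in place of 4. Without the filter on dim probes 2 members were higher on both arrays, and with 1 array alone 1 to 2. With saturated spots left out 2 members were at least 2-fold lower. The cause of these changes was not tested. The scanner's signals carry no offset, and 2 arrays limit every count. Applying the alternatives to the other lists' counts was chosen after seeing the data.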
